A study of Homo sapiens with 12 samples.

Results

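The 33 genes described here, measured in Caco-2 cells, act in the synthesis, sensing and transport of cholesterol or regulate these. They were chosen by name from a table of 48162 genes. The set holds 17 genes of synthesis, 4 of sterol sensing, 2 of uptake, 5 of trafficking and storage and 5 of efflux. Caco-2, a long-established line from a human colorectal adenocarcinoma, resembles absorptive enterocytes once it differentiates. Cells of passage 26 were grown as spheroids in matrigel for 5 days, in medium that held 20% fetal bovine serum, and were then exposed for 4 h. The 4 groups, of 3 libraries each, received methotrexate, lactoferrin, methotrexate together with lactoferrin (both agents) or the carrier fluid alone (control). Methotrexate is an antifolate drug and lactoferrin a milk protein that binds iron. All groups shared the line, the passage and the medium, and no source says whether replicate libraries stem from separate cultures. The p-values therefore reflect variation among these libraries only, part of which may be technical.

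Cells make cholesterol from acetyl-CoA through the mevalonate pathway and then squalene and lanosterol. When membranes of the endoplasmic reticulum are poor in sterol, the escort protein SCAP carries the transcription factor SREBP-2, encoded by SREBF2, to the Golgi, where it is cut and freed to switch on synthesis genes. The INSIG proteins hold SCAP back when sterol is plentiful. Excess sterol is esterified by the SOAT enzymes or exported by ABC transporters under the liver X receptors (LXR), encoded by NR1H3 and NR1H2. In the intestine NPC1L1 takes up cholesterol from the lumen, and the paired transporters ABCG5 and ABCG8 return sterols to it.

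The methotrexate libraries held 47459811 to 60591667 counts and the other 9 held 18714054 to 23859094. Mitochondrial genes took 6.67 to 7.54% of counts with methotrexate, 2.43 to 2.98% with lactoferrin, 2.56 to 2.73% with both agents and 2 to 3.34% in control. None of the 14 epithelial markers was at 0 across a whole group, so the labelled cell type was seen throughout. CDX1 was close to absent, at 0.192 CPM at most. The summed level of the 14 markers was 3481 to 3853 CPM with methotrexate and 7083 to 7487 CPM with lactoferrin. It was 7126 to 7459 CPM with both agents and 7443 to 7919 CPM in control. The 12 adipocyte markers summed to 17300 to 18010 CPM in the methotrexate libraries and to 46.1 to 55.8 CPM in the other 9. The 12 fibroblast markers summed to 9869 to 11340 CPM with methotrexate, 901 to 996 CPM with lactoferrin, 906 to 1059 CPM with both agents and 901 to 1010 CPM in control. FBLN1 alone held 827 to 922 CPM of the sum in control, and went the other way, at 422 to 505 CPM with methotrexate. The methotrexate libraries thus differed from the rest in depth, mitochondrial share and markers of other cell types, and what sets them apart cannot be told apart from the drug. Fewer cells of a type and less RNA per cell also cannot be told apart in bulk samples.

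Promoter windows from RefSeq (GRCh38.p14, the 250 bases before the annotated start) were found for 29 of the 33 genes. FDFT1, SQLE, ACAT2 and SOAT2 had no entry. The windows of MVD, LSS and NSDHL are shown because these synthesis genes had the largest rises with methotrexate below, that of INSIG1 because it leads the sensing group, that of SREBF2 because it holds the longest sterol element searched for, and that of NR1H3 because it leads the efflux group. Capitals mark matches on either strand to the sterol element TCACNCCAC and its shorter core CACNCCA, which lies within it. They also mark the CCAAT box (ATTGG on the other strand) and AGGTCA, which is only part of an LXR element. The full LXR element was not searched for. The windows lie at chr16:88663092-88663341 (minus strand) for MVD, chr21:46228775-46229024 (minus) for LSS, chrX:152830813-152831062 (plus) for NSDHL, chr7:155297628-155297877 (plus) for INSIG1, chr22:41832855-41833104 (plus) for SREBF2 and chr11:47248050-47248299 (plus) for NR1H3.
MVD: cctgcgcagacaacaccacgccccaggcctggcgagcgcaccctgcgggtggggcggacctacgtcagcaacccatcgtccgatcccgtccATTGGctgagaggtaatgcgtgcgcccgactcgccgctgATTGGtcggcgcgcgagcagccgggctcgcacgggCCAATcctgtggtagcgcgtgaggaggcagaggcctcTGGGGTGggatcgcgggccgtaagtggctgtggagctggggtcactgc
LSS: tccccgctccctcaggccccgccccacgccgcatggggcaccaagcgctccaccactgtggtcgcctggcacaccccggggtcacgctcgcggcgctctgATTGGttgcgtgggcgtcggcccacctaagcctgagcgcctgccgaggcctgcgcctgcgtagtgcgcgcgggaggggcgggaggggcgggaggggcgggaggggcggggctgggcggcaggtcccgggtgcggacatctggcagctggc
NSDHL: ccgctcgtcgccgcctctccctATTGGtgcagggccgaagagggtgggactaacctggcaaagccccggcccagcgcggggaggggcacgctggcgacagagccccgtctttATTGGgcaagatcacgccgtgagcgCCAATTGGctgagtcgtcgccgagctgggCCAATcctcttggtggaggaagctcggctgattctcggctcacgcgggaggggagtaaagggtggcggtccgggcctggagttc
INSIG1: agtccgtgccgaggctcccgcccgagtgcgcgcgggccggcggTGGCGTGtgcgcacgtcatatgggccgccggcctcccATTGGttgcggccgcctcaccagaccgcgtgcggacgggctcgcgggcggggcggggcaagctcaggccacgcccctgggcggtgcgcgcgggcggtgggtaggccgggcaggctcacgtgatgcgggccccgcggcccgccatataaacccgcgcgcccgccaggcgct
SREBF2: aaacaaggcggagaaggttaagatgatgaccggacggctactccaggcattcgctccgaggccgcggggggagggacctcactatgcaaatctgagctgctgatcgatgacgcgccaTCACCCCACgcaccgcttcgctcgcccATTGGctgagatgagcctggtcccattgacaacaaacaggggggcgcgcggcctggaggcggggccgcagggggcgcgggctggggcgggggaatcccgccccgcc
NR1H3: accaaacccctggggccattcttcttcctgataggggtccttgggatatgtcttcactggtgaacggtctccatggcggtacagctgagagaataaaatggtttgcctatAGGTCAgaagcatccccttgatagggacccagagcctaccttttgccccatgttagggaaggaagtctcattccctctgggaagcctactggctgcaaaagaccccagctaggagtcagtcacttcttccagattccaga

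MVD carries 3 CCAAT boxes and a short sterol element 48 bases before the start, LSS carries 1 CCAAT box and no sterol element, and NSDHL carries 5 CCAAT boxes, 2 of which overlap, and no sterol element. INSIG1 holds a short sterol element and a CCAAT box. SREBF2 holds the only TCACNCCAC of the 29 windows, 133 bases before the start, with a CCAAT box downstream of it, whereas 0.883% of all 35116 windows hold that element. NR1H3 has none of these and a single AGGTCA, which alone is not a full LXR element.

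Across the set, the CCAAT box was found in 18 of 29 windows (62.1%), against 32% of all windows. It was in 11 of 14 synthesis windows (78.6%) and in 0 of 5 efflux windows. The short element CACNCCA was in 9 of 29 (31%), against 14.7% of all windows, and the holders were MVK, MVD, TM7SF2, EBP, INSIG1, SREBF2, MYLIP, SOAT1 and ABCA1. The Sp1 box GGGCGG, searched on both strands but left in lower case above, was in 24 of 29 (82.8%), against 42.6% of all windows. AGGTCA was in 1 of 29 and in 12.1% of all windows. All windows were counted whether or not their gene was expressed here, whereas each of the 29 genes was counted by 1 window. The shares thus compare unlike sets. These are letter matches in a short window and say nothing of binding.

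Levels differed widely within the set. Per kilobase of gene length, and scaled by the trimmed mean of M values (TMM), DHCR7, the enzyme of the last step to cholesterol, stood highest in control at 286 ± 39.2 CPM per kb (SD, n = 3). The lysosomal sterol carrier NPC2 (109 ± 1.71), MVD (95.7 ± 10.6) and the isomerase EBP (94.3 ± 8.72) came next in CPM per kb. MVD and EBP differed by less than their spread. At the low end were INSIG2 at 4.06 ± 0.43 and FDPS at 2.51 ± 0.21 CPM per kb. ABCG5 and ABCG8 had 0 to 4 counts in each library, were not tested, and allow no statement on return of sterol to the lumen beyond that depth. In the methotrexate libraries MVD led at 587 ± 16.2 CPM per kb, with INSIG1 at 284 ± 19.4 and DHCR7 at 270 ± 19.6 after it, which differed by less than their spread. FDPS, CYP51A1 and HSD17B7 have pseudogene copies, so their counts are uncertain, and the sources used here do not give the strand of the libraries.

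**Figure D1:**
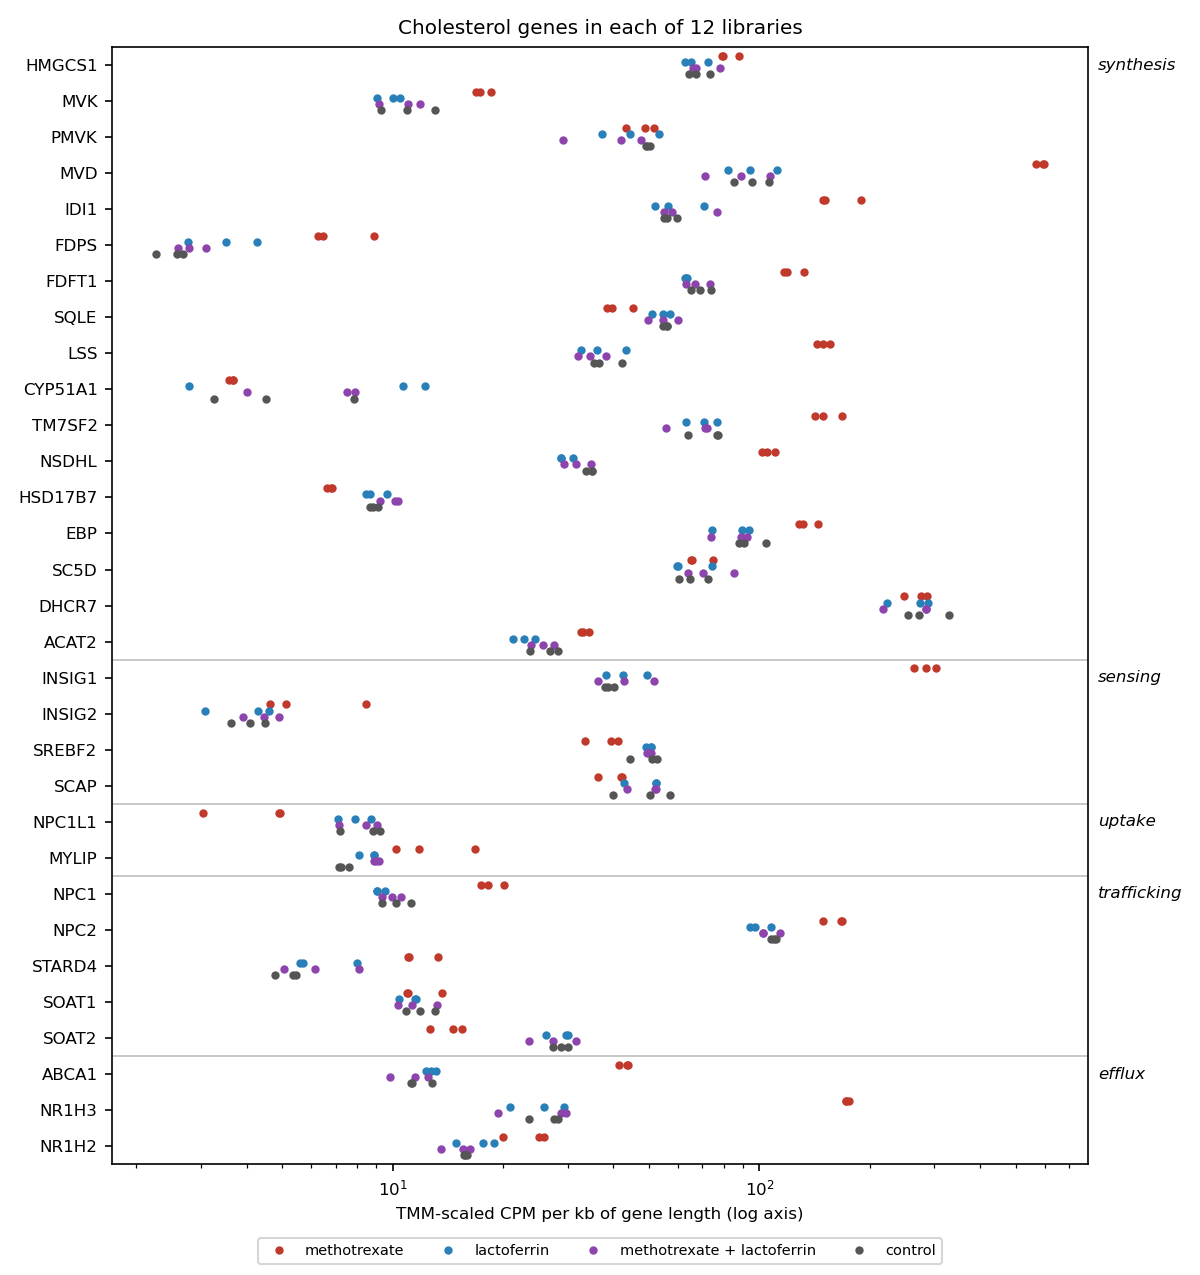
TMM-scaled CPM per kilobase of gene length on a log axis, 1 point per library, for the 31 genes tested, by role and with 4 groups of 3 libraries. The methotrexate points of INSIG1, MVD, LSS, ABCA1 and NR1H3 lie apart to the right, and those of SOAT2 and NPC1L1 to the left, while the other 3 groups lie close together for all genes but CYP51A1.

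Methotrexate against control was the comparison in which most of these genes differed. Of the 31 genes tested, 20 were higher and 5 lower, and 6 were not called, at an adjusted p under 0.05 in the quasi-likelihood test of edgeR, adjusted by Benjamini-Hochberg over all 16733 genes. Among all genes tested, 35.4% were higher and 29.1% lower. The median log2 fold change was 0.58 for the 31 genes and 0.03 for all genes. All 3 tested efflux genes, 11 of 17 synthesis genes, 2 of 4 sensing genes, 3 of 5 trafficking genes and 1 of 2 uptake genes were higher.

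In the mevalonate steps and beyond, MVD (ENSG00000167508, chromosome 16, 88718343 to 88729569 on hg19), which makes isopentenyl diphosphate, differed most. It stood at 1404, 1400 and 1336 CPM with methotrexate, 222, 193 and 262 CPM with lactoferrin, 210.3, 251 and 167 CPM with both agents and 200.3, 225 and 250.02 CPM in control. The methotrexate libraries lay far above all 9 others, which overlapped, and the log2 fold change over control was 2.62 ± 0.14 (SE; adjusted p = 8.21e-11, edgeR). LSS (chromosome 21, 47608055 to 47648738), which closes squalene epoxide into lanosterol, stood at 734, 771 and 709.7 CPM with methotrexate, 178, 161 and 214 CPM with lactoferrin, 170.3, 188 and 158 CPM with both agents and 175, 180.3 and 208 CPM in control. Its methotrexate libraries did not overlap any other, and it rose by 1.97 ± 0.11 (adjusted p = 1.51e-10, edgeR). NSDHL (chromosome X, 151999511 to 152038273), a dehydrogenase that helps remove the C4 methyl groups of lanosterol, stood at 202, 213 and 197 CPM with methotrexate, 55.6, 55.5 and 60.02 CPM with lactoferrin, 67.1, 61 and 56.6 CPM with both agents and 67.5, 65.2 and 67.3 CPM in control. It rose by 1.62 ± 0.09 (adjusted p = 1.37e-10, edgeR), again with no overlap.

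The other synthesis genes that rose did so by less. The isomerase IDI1 (1.52 ± 0.14) and FDPS (1.52 ± 0.18), which makes farnesyl diphosphate, came next on the log2 scale. FDPS rested on low counts, with 113 to 123 in each control library. The sterol reductase TM7SF2 (1.07 ± 0.12), squalene synthase FDFT1 (0.83 ± 0.09), mevalonate kinase MVK (0.67 ± 0.13), EBP (0.52 ± 0.11) and the thiolase ACAT2 (0.34 ± 0.10) also rose. HMGCS1, the HMG-CoA synthase at the head of the pathway, stood at 277, 279 and 308 CPM with methotrexate, 220.3, 255 and 228 CPM with lactoferrin, 236, 231 and 273 CPM with both agents and 257, 236 and 226 CPM in control. The methotrexate libraries were all above control by a narrow margin, and the change of 0.27 ± 0.10 (adjusted p = 0.0247, edgeR) was no longer called without control 2 (0.25, adjusted p = 0.0755), control 3 (0.22, adjusted p = 0.104) or methotrexate 3 (0.21, adjusted p = 0.0844).

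Squalene epoxidase SQLE, an oxygen-using enzyme often described as rate-limiting after the mevalonate steps, went the other way with TMM scaling. It stood at 117, 114 and 134 CPM with methotrexate, 151, 169 and 162 CPM with lactoferrin, 162, 147 and 178 CPM with both agents and 166, 162 and 166 CPM in control. The methotrexate libraries lay below all others at -0.44 ± 0.10 (adjusted p = 0.000829, edgeR), and this direction turned to 0.49 under the epithelial scaling described below. HSD17B7, a keto-reductase of the C4 demethylation, stood at 16.8, 17.3 and 17.3 CPM with methotrexate, 22.1, 24.5 and 21.5 CPM with lactoferrin, 25.7, 23.5 and 26.3 CPM with both agents and 23.2, 22.5 and 22.1 CPM in control. It was at -0.40 ± 0.10 (adjusted p = 0.0028, edgeR), with no overlap, and turned to 0.53 under epithelial scaling. PMVK (-0.05), CYP51A1 (-0.52), SC5D (0.05) and DHCR7 (-0.08) were not called. SQLE and LSS, whose enzymes act in direct sequence, stood at -0.44 and 1.97 in the same libraries.

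Among sensing genes INSIG1 (ENSG00000186480, chromosome 7, 155089486 to 155101945 on hg19), itself a known SREBP target, had the largest rise of the set. It stood at 796, 857 and 913 CPM with methotrexate, 115, 149 and 128 CPM with lactoferrin, 129, 109.7 and 156 CPM with both agents and 116, 115 and 121 CPM in control. The methotrexate values were several times those of every other library, a change of 2.87 ± 0.13 (adjusted p = 5.43e-12, edgeR). SREBF2 (chromosome 22, 42229109 to 42303312) stood at 225, 234 and 191 CPM with methotrexate, 288, 289 and 280.3 CPM with lactoferrin, 286, 282 and 289 CPM with both agents and 254, 291 and 299.7 CPM in control. It was lower at -0.38 ± 0.09 (adjusted p = 0.00243, edgeR) with no overlap, and turned to 0.55 under epithelial scaling. SCAP was at -0.29 ± 0.13 (adjusted p = 0.0556, edgeR) and was called without control 1 (-0.43, adjusted p = 0.00825), both agents 3 (-0.30, adjusted p = 0.034) or lactoferrin 2 (-0.30, adjusted p = 0.0426). INSIG2, the second retention protein, rose by 0.58 ± 0.20 (adjusted p = 0.0193, edgeR). Methotrexate 3 held 26.9 CPM of INSIG2 and the other methotrexate libraries 16.3 and 14.7 CPM, against 14.3, 11.5 and 13 CPM in control. Without methotrexate 3 the change was 0.26 (adjusted p = 0.177), and without control 2 it was 0.50 (adjusted p = 0.082).

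The efflux genes had the highest median of the 5 roles, at 1.87. NR1H3 (chromosome 11, 47269851 to 47290396), which encodes LXR alpha, stood at 471, 479.6 and 471 CPM with methotrexate, 79.9, 57 and 70.8 CPM with lactoferrin, 81.3, 78.6 and 53.1 CPM with both agents and 64.3, 77.2 and 75.4 CPM in control. The 3 methotrexate libraries were close to each other and far above the rest, a rise of 2.71 ± 0.15 (adjusted p = 1.31e-10, edgeR). ABCA1 (chromosome 9, 107543283 to 107690518), which exports cholesterol to apolipoprotein A-I and is an LXR target, stood at 459.6, 457 and 435 CPM with methotrexate, 138, 134 and 129 CPM with lactoferrin, 121, 103 and 131 CPM with both agents and 119, 134 and 118 CPM in control. It rose by 1.87 ± 0.10 (adjusted p = 6.25e-11, edgeR) with no overlap. NR1H2, which encodes LXR beta, rose less, by 0.58 ± 0.12. Summed over the efflux genes, the level was 953 to 998 CPM with methotrexate and 217 to 259.5 CPM in the other 9 libraries. ABCA1 was the only transporter among the efflux genes tested. With methotrexate the receptor gene NR1H3 held more of this sum than ABCA1 did (means of 474 and 450 CPM).

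Of the 2 uptake genes 1 was higher and 1 lower, and of the 5 trafficking and storage genes 3 were higher and 1 lower, with TMM scaling. NPC1L1 (chromosome 7, 44552134 to 44580914) stood at 24.8, 24.9 and 15.4 CPM with methotrexate, 44, 35.9 and 39.8 CPM with lactoferrin, 42.6, 45.7 and 36 CPM with both agents and 36.4, 44.8 and 46.5 CPM in control. It was at -0.97 ± 0.17 (adjusted p = 7.59e-05, edgeR), with methotrexate 3 the lowest library. SOAT2 (chromosome 12, 53497302 to 53518322), the sterol esterifying enzyme of enterocytes and liver, stood at 31.7, 29.8 and 25.9 CPM with methotrexate, 60.7, 53.4 and 61.4 CPM with lactoferrin, 64.7, 55.9 and 48.2 CPM with both agents and 56.1, 58.9 and 61.4 CPM in control. It was at -1.01 ± 0.12 (adjusted p = 1.32e-06, edgeR), and neither gene was called under epithelial scaling (NPC1L1 -0.06, SOAT2 -0.09). The more widely expressed esterifying enzyme SOAT1 was at -0.01 ± 0.12 and not called. MYLIP, an LXR target that marks lipoprotein receptors for degradation, rose by 0.83 ± 0.15, with 47.1 CPM in methotrexate 3 and 33.1 and 28.7 CPM in the others, against 20.2, 19.9 and 21.3 CPM in control. The sterol transfer protein STARD4 (1.19 ± 0.17) and the lysosomal exporters NPC1 (0.86 ± 0.10) and NPC2 (0.56 ± 0.09) rose.

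The libraries in which these genes differed were those with the other cell types' markers. All 12 adipocyte markers and 10 of the 11 fibroblast markers tested were higher with methotrexate than in control, and 12 of 13 epithelial markers tested were lower. Among all genes tested, 35.4% were higher and 29.1% lower. Markers near 0 elsewhere, such as ADIPOQ, DPT and MFAP5, passed the filter only through the methotrexate libraries, so their calls add nothing to their levels. The adipocyte hormone gene ADIPOQ held 1500 to 1590 CPM with methotrexate, 0 to 0.0481 CPM with lactoferrin, 0 to 0.0425 CPM with both agents and 0 to 0.24 CPM in control. LEP was at 0 with lactoferrin and with both agents, DPT and MFAP5 were at 0 in all groups but methotrexate, SFRP2 with lactoferrin and both agents, and DCN with lactoferrin. The 8 mural markers summed to 590 to 756 CPM with methotrexate and 216 to 306 CPM in the other 9 libraries. NOTCH3 made up most of this sum in control, at 169 to 236 CPM, and held 118 to 190 CPM with methotrexate. Of the 7 mural markers tested, 6 were higher with methotrexate than in control and 0 lower. The 12 macrophage and blood markers summed to 37.4 to 45.5 CPM with methotrexate and 25.4 to 32.9 CPM in the other 9 libraries. Of the last list only 3 were tested, with 2 higher and 1 lower than in control. CD14 held 25.8 to 33.4 CPM with methotrexate and 12.2 to 14.8 CPM in control, whereas CSF1R held 8.71 to 10.2 CPM and 16.1 to 16.8 CPM. The 11 endothelial markers in the table summed to 33.2 to 36.1 CPM with methotrexate and overlapped the other libraries (25.3 to 37.1 CPM). EGFL7 made up most of this sum, at 17.7 to 22.9 CPM with methotrexate and 22.9 to 32.1 CPM in control. Of the 7 endothelial markers tested, 5 were higher with methotrexate than in control and 1 was lower. The part of these markers and of the mitochondrial share in the cholesterol gene differences was not tested.

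The scaling decided the direction of 8 of the 31 genes, CYP51A1, DHCR7, HSD17B7, PMVK, SCAP, SOAT1, SQLE and SREBF2. Epithelial scaling sets libraries by the median ratio of 41 genes, mostly of the brush border and of cell junctions. VIL1, CDH1, EPCAM and CDH17 of these are also among the epithelial markers above. This scaling moved the median of all genes to 0.95, against 0.03 with TMM scaling. Under it 28 of the 31 genes were higher with methotrexate and 0 lower, where 75.3% of all genes were higher and 0.598% lower, and the median of the 31 genes was 1.502. CYP51A1, NPC1L1 and SOAT2 were not called. Each of the 31 genes moved up by 0.92 to 0.93 between the scalings, and their median lay 0.55 above that of all genes under either. A change of library factors adds nearly the same amount to every gene. The even shift and the unchanged gap thus follow by construction and are no second test of the gap.

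**Figure D2:**
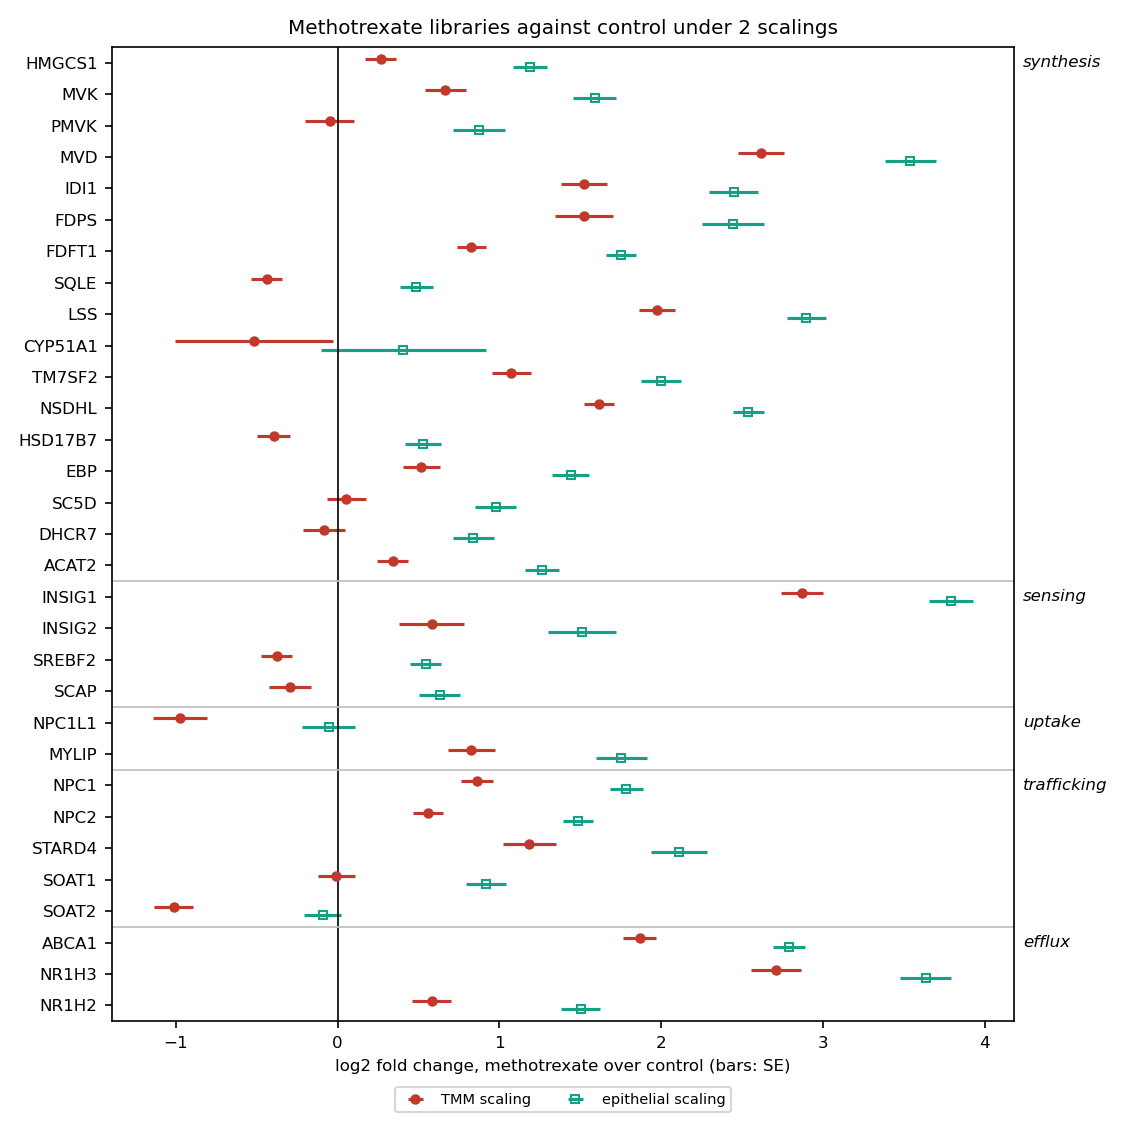
Log2 fold change of methotrexate over control for each gene tested, by role, with TMM scaling (circles) and epithelial scaling (squares), bars showing the SE. Epithelial scaling shifts all genes to the right by a similar amount, so that SQLE, HSD17B7 and SREBF2, lower with TMM scaling at -0.44, -0.40 and -0.38, lie at 0.49, 0.53 and 0.55.

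Lactoferrin against control gave no call among the 31 genes. None of the 16733 genes that passed the filter was called either (0% higher and 0% lower by edgeR), with 623 genes at an unadjusted p under 0.05 and 0 calls among the 31 by DESeq2 and by limma-voom. Of the 31, 2 had an unadjusted p under 0.05. FDPS stood at 5.58, 7.08 and 8.63 CPM with lactoferrin, 5.61, 6.26 and 5.25 CPM with both agents and 5.42, 4.58 and 5.2 CPM in control, 0.49 ± 0.19 over control (adjusted p = 1, edgeR), or 0.32 without lactoferrin 3. NSDHL was at -0.22 ± 0.09 (adjusted p = 1, edgeR). The median size of the change over the 31 genes was 0.11 on the log2 scale.

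The intervals bound the changes with lactoferrin. For 28 of the 31 genes the 95% interval of the change (log2 fold change and SE, t with 8 degrees of freedom) lay within a change of 1.5-fold either way, and for 30 within 2-fold. FDPS, CYP51A1 and STARD4 were outside the narrower limit, and CYP51A1 outside the wider one. CYP51A1, the demethylase that acts on lanosterol, is described after its values were seen. It stood at 8.95, 34.3 and 39.3 CPM with lactoferrin, 12.9, 24.2 and 25.3 CPM with both agents, 11.5, 11.8 and 11.8 CPM with methotrexate and 25.2, 14.6 and 10.5 CPM in control. The methotrexate libraries were close to each other, while those within each other group lay far apart and the groups overlapped, although each library held 186 to 774 counts. Its change with lactoferrin was 0.72 ± 0.49 (adjusted p = 1, edgeR), with an interval of -0.41 to 1.85, and it was called when no low-count filter was used (0.73, adjusted p = 0.00529), within an adjusted p of 0.00529 to 1 over its alternatives.

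With both agents, again none of the 31 genes was called against control, where 0.0299% of all genes were higher and 0% lower. None of the 31 had an unadjusted p under 0.05, against 580 of all genes, and DESeq2 and limma-voom called 0 of them. PMVK, the phosphomevalonate kinase, was lowest at -0.33 ± 0.16 (unadjusted p = 0.0522, adjusted p = 1, edgeR), and STARD4 (0.31 ± 0.17) and MYLIP (0.31 ± 0.15) were among the highest. Without both agents 3, PMVK was at -0.15 and STARD4 at 0.11, and over all alternatives they ran from -0.48 to -0.15 and from 0.11 to 0.46. The interval lay within 1.5-fold for 25 genes and within 2-fold for 30. For the genes that differed most with methotrexate alone, the changes with both agents were -0.11 ± 0.14 for MVD, 0.17 ± 0.12 for INSIG1, -0.03 ± 0.15 for NR1H3 and -0.06 ± 0.10 for ABCA1. These comparisons share the control libraries.

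**Figure D3:**
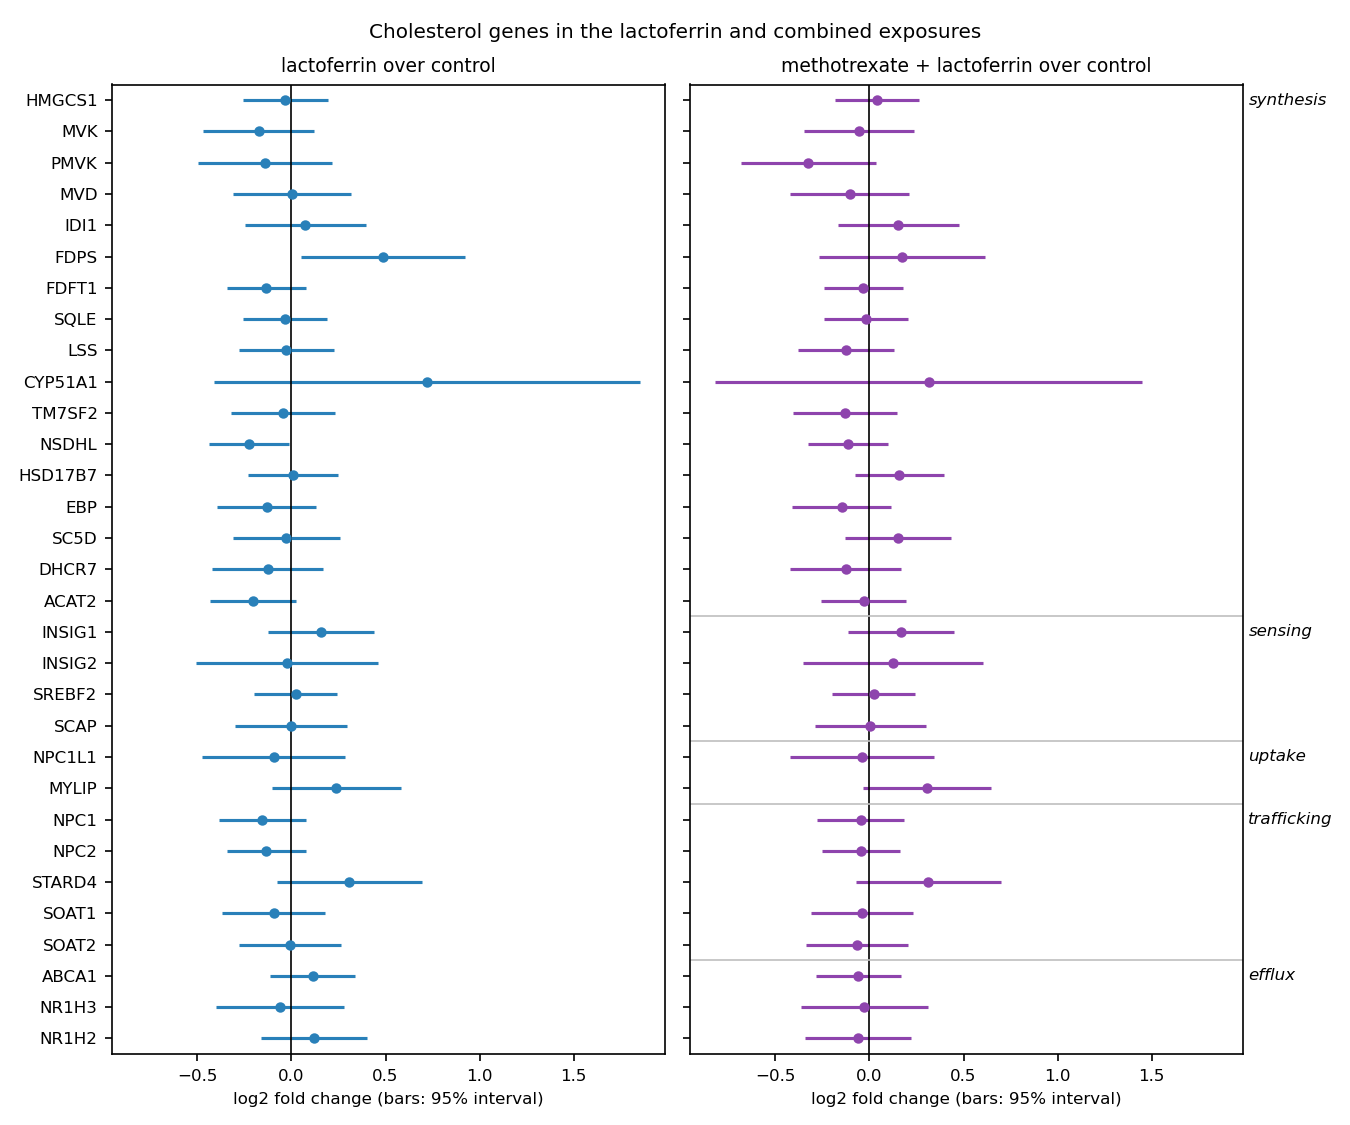
Log2 fold change over control with its 95% interval for the 31 genes tested, with lactoferrin (left) and with both agents (right). No gene was called in either panel, and CYP51A1 has the widest interval, -0.41 to 1.85 with lactoferrin.

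Both agents against lactoferrin asks what methotrexate adds when lactoferrin is present. None of the 31 genes was called (0.0179% of all genes were higher and 0% lower by edgeR), none had an unadjusted p under 0.05 and neither DESeq2 nor limma-voom called any. CYP51A1 was at -0.41 ± 0.49 (-0.83 to -0.06 over the alternatives), FDPS at -0.31 ± 0.19 (-0.46 to -0.15) and SC5D, a desaturase late in the pathway, at 0.18 ± 0.12 (0.05 to 0.29). Intervals lay within 1.5-fold for 28 genes.

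Both agents against methotrexate uses the libraries that stand apart, as does methotrexate against control. Of the 31 genes, 18 were lower and 5 higher with both agents than with methotrexate alone, where 34.4% of all genes were lower and 28.8% higher. The 5 that were higher with TMM scaling were SQLE (0.42 ± 0.10), HSD17B7 (0.55 ± 0.10), SREBF2 (0.40 ± 0.09), NPC1L1 (0.94 ± 0.17) and SOAT2 (0.95 ± 0.12), of which the first 3 turned to lower under epithelial scaling and the last 2 were not called. NR1H3 averaged 71 ± 15.6 CPM with both agents and 474 ± 4.98 CPM with methotrexate (SD, n = 3 each), a log2 fold change of -2.74 ± 0.15. MVD (-2.72 ± 0.14), INSIG1 (-2.70 ± 0.13), LSS (-2.10 ± 0.11) and ABCA1 (-1.93 ± 0.10) were the next lowest. Under epithelial scaling 28 of the 31 were lower and 0 higher, where 73.5% of all genes were lower and 0.974% higher.

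The interaction tests whether the difference between libraries with and without methotrexate was the same with and without lactoferrin. It is the change of both agents over lactoferrin minus that of methotrexate over control. It was lower than 0 for 17 of the 31 genes and higher for 5, where 26.1% of all genes were lower and 20.6% higher. The lowest were INSIG1 (-2.86 ± 0.17), MVD (-2.72 ± 0.20) and NR1H3 (-2.68 ± 0.21). Under epithelial scaling 28 were lower and 0 higher, where 64.8% of all genes were lower and 0.377% higher. The adipocyte and fibroblast markers were high in the methotrexate libraries and low in the libraries with both agents, as given above, and their part in the interaction was not tested.

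A wider list of 54 further genes of cholesterol and sterol-regulated lipid metabolism, 51 of them tested, was fixed with earlier results known. With methotrexate 21 were higher and 11 lower than in control, where 35.4% of all genes were higher and 29.1% lower, and the median was 0.17. Under epithelial scaling 46 were higher and 0 lower, where 75.3% of all genes were higher, with a median of 1.09. With both agents 10 were higher and 25 lower than with methotrexate, where 28.8% of all genes were higher and 34.4% lower, or 0 higher and 46 lower under epithelial scaling, where 73.5% were lower. None was called in the comparisons with lactoferrin alone, or of both agents with control or with lactoferrin. The genes with the lowest p were ABCG1, an LXR target that exports cholesterol to high-density lipoprotein, LPIN1, a phosphatidate phosphatase and SREBP target, VLDLR, a receptor of triglyceride-rich lipoproteins, and LIMA1, an actin-binding protein that acts with NPC1L1. ABCG1 averaged 52.2 ± 1.96 CPM with methotrexate and 1.02 ± 0.39 CPM in control (5.67 ± 0.23), and VLDLR 27.5 ± 2.67 CPM and 0.55 ± 0.36 CPM (5.67 ± 0.28). LPIN1 averaged 505 ± 9.16 CPM with methotrexate and 22.3 ± 2.94 CPM in control (4.50 ± 0.13), and LIMA1 514 ± 50.5 CPM and 104 ± 11.1 CPM (2.30 ± 0.13). With both agents they averaged 0.71, 0.98, 22.8 and 106 CPM in the order ABCG1, VLDLR, LPIN1 and LIMA1.

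Outside the methotrexate libraries the set was steady. Over the 9 other libraries the coefficient of variation was lowest for SREBF2 (4.52%, 254 to 299.7 CPM) and 20.6% for FDPS, with CYP51A1 apart at 49.4%. What spread remained was shared by genes of like base composition. The GC content of the longest annotated transcript (GENCODE v29) ran from 34.2% for STARD4 to 64.2% for TM7SF2 among the 31 genes. In lactoferrin 2, all 8 genes of lowest GC content lay above their group mean and none of the 8 of highest GC content did, with medians of 0.22 and -0.20 on the log2 scale. Both agents 3 (0.21 and -0.22) and methotrexate 3 (0.155 and -0.129) showed the same split, and in control 1 it was 8 and 2 genes (0.12 and -0.16). Lactoferrin 3 (-0.09 and 0.15) and both agents 2 (-0.17 and 0.13) were the reverse.

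As a description across the 31 genes of a library, Spearman's rho between GC content and deviation ran from -0.866 in both agents 3 to 0.772 in methotrexate 2. Among the 11025 genes with a mean of at least 5 CPM it had the same sign in each of the 12 libraries, from -0.723 in both agents 3 to 0.686 in both agents 2. Genes of a library share its depth and preparation, so no p is given. Each group held libraries of both signs. The deviations of the 3 libraries of a group cancel for each gene, because they are taken from the group mean. Both signs within a group, and the reversed splits above, are therefore largely built in and say nothing of balance between groups.

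**Figure D4:**
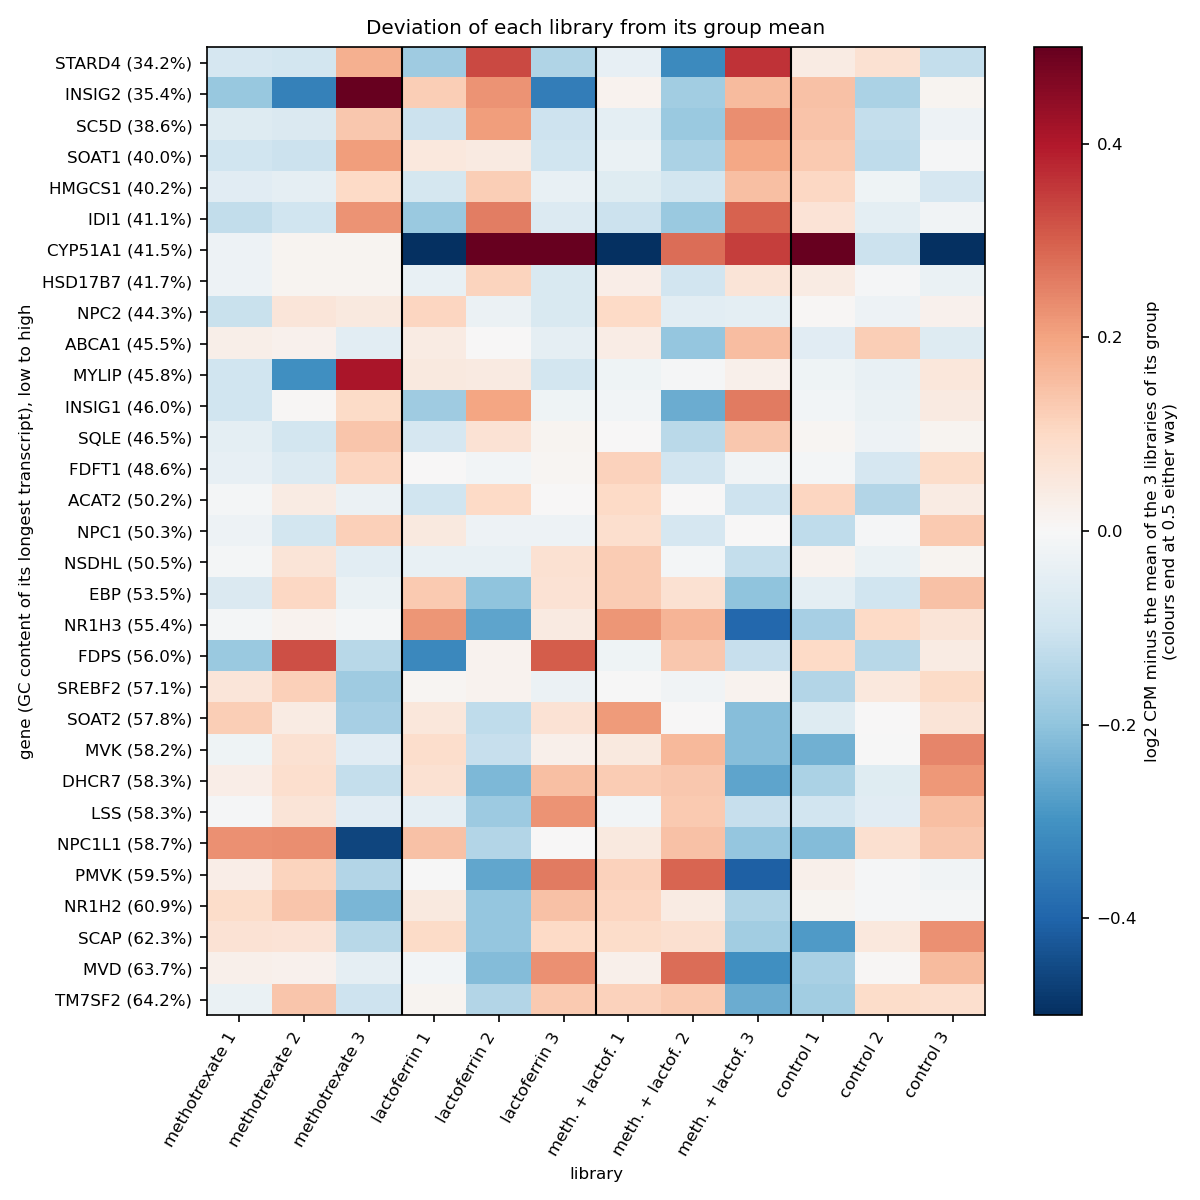
Deviation of each library from the mean of its group on the log2 scale, for the 31 genes ordered by GC content of the longest transcript (rows, low at the top) in 12 libraries (columns). Methotrexate 3, lactoferrin 2, both agents 3 and control 1 are high at the low-GC end and low at the high-GC end. Their medians are 0.12 to 0.22 for the 8 genes of lowest GC content and -0.22 to -0.13 for the 8 of highest. CYP51A1 has the same direction as the other low-GC genes in these libraries. It departs from them in lactoferrin 3 (0.77) and both agents 2 (0.28), where it alone of the 8 is above its group mean.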

How the data were processed

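RNA was extracted from 12 samples of Caco-2 spheroids and sequenced as read pairs. Per the submitters' processing notes, CASAVA, STAR and DESeq2 were used with the build hg19, with no versions and no counting program named. The deposited table, made by the authors, holds whole-number counts per gene, and all 12 of its count columns were mapped to samples by their titles (0 were not mapped). Of 48162 genes, 15233 were 0 throughout. The analysis used edgeR 4.0.16 in R 4.3.3: filterByExpr kept 16733 genes, TMM factors were 0.852 to 0.884 (methotrexate) and 1.01 to 1.08 (other groups), and a quasi-likelihood F test was run on 1 model of 4 group means for 6 contrasts, with 8 residual degrees of freedom, 12.9% biological variation and Benjamini-Hochberg adjustment over all genes within a contrast. Calls were made at an adjusted p under 0.05. A count of 3 corresponds to 0.0495 to 0.16 CPM, which covers counting error only.

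The members and lists were chosen with earlier results of these data known. Values in every library are given for the 6 highest and 6 lowest log2 fold changes among members called with methotrexate against control. Only 5 of those were lower, so the sixth of the lowest is a small rise, HMGCS1. Up to 4 genes of the wider list with the lowest p in a comparison are named. Other genes with values by library were chosen after their values were seen. Alternatives were DESeq2 1.42.0, limma-voom (limma 3.58.1), relative log expression (RLE) factors, the submitters' cut-offs, no filter, a replicate block, a fit of only the groups compared or without the methotrexate libraries, thinning the methotrexate libraries to 20809093 counts, epithelial scaling and leaving out each library. Scripts were tested on simulated data. Motifs were searched on both strands of RefSeq promoter windows.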

Additional observations from a re-analysis of the deposited data

Results flagged for a closer look

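The interaction test of edgeR was called for 22 of the 31 genes tested, 17 below 0 and 5 above. Among all genes tested, 26.1% were called below 0 and 20.6% above. The values are log2 differences, the change of both agents over lactoferrin minus that of methotrexate over control. Among synthesis genes they were -2.72 for MVD, -2.07 for LSS, -1.84 for FDPS, -1.51 for NSDHL, -1.44 for IDI1, -1.16 for TM7SF2, -0.73 for FDFT1, -0.55 for MVK and -0.53 for EBP, and 0.45 for SQLE and 0.55 for HSD17B7. In sensing they were -2.86 for INSIG1 and 0.38 for SREBF2. In efflux they were -2.68 for NR1H3, -2.04 for ABCA1 and -0.76 for NR1H2. In trafficking and storage they were -1.18 for STARD4, -0.75 for NPC1, -0.47 for NPC2 and 0.96 for SOAT2, and in uptake -0.76 for MYLIP and 1.03 for NPC1L1. SQLE, HSD17B7 and SREBF2 changed direction under epithelial scaling, and NPC1L1 and SOAT2 were not called there. All these values rest on the methotrexate libraries, in which markers of adipocytes and fibroblasts were high.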

How the results depend on the processing

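The counts of called genes were within 1.5 times the reported ones under DESeq2, limma-voom, RLE factors, thinning of the methotrexate libraries and a fit of only the groups compared. With the submitters' cut-offs of over 2-fold and an adjusted p under 0.01, 10 genes were higher and 1 lower with methotrexate against control (21.6 and 5.43% of all genes), 0 higher and 9 lower with both agents against methotrexate (5.34 and 20.9%), and 1 higher and 10 lower in the interaction (4.28 and 15.4%), which those stricter cut-offs bring about by construction. Epithelial scaling gave 28 higher and 0 lower with methotrexate against control (75.3 and 0.598% of all genes). With both agents against methotrexate it gave 0 higher and 28 lower (0.974 and 73.5%). In the interaction it also gave 0 higher and 28 lower (0.377 and 64.8%). Without the filter 1 gene, CYP51A1, was higher with lactoferrin against control (0.73), as were 0.0273% of all genes. In that fit CYP51A1 was also called with methotrexate against control (-0.48), and CYP51A1 (0.80), SCAP (0.27), PMVK (-0.31) and INSIG2 (-0.49) with both agents against methotrexate, while SREBF2 lost its interaction call (0.35, adjusted p = 0.0969). The cause was not tested. Genes that changed direction, and were called under at least 1 of the settings, did so under epithelial scaling alone. With methotrexate against control they were PMVK (0.87), SQLE (0.49), HSD17B7 (0.53), DHCR7 (0.84), SREBF2 (0.55), SCAP (0.63) and SOAT1 (0.92). With both agents against methotrexate they were SQLE (-0.47), HSD17B7 (-0.33), SC5D (-0.79), SREBF2 (-0.48) and SCAP (-0.58). In the interaction they were SQLE (-0.47), HSD17B7 (-0.37), SC5D (-0.79), DHCR7 (-0.83), SREBF2 (-0.54), SCAP (-0.61) and SOAT1 (-0.85). Leaving out each library in turn gave 18 to 20 higher and 5 to 6 lower with methotrexate against control. Among all genes, 5587 to 6288 were higher and 4338 to 5183 lower there, of 16965 to 17407 tested. With both agents against methotrexate it gave 5 to 6 higher and 18 to 19 lower (4362 to 4915 and 5412 to 5982 of all genes). In the interaction it gave 4 to 5 higher and 16 to 17 lower (2956 to 3621 and 4015 to 4539 of all genes). The other comparisons gave 0, with at most 8 of all genes called. MVK lost its interaction call without control 1 (-0.43, adjusted p = 0.0583) or lactoferrin 1 (-0.50, 0.0537), and SREBF2 in 6 such fits (0.29 to 0.38, adjusted p from 0.0511 to 0.0743). With both agents against methotrexate, MYLIP was at -0.29 without methotrexate 3 (adjusted p = 0.0313).

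The correlations gave no sign that the replicate numbers pair the libraries, but with 3 libraries per group they cannot exclude it. The 18 same-numbered pairs had correlations of -0.216 to 0.118 between their deviations from the group means, 2 of them over 0.1. With the replicate block, 20 genes were higher and 5 lower with methotrexate against control, as without it, and no call of these genes changed in any comparison. Of all 16733 genes, 5727 were higher and 4641 lower with methotrexate in that fit.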
